A study of Mus musculus with 8 samples.

Results

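Mitosis and spindle genes, 40 genes whose products act in G2 and M phase of the cell cycle, were followed in mouse kidneys after loss of Xpr1 from the nephron. The genes were taken by name from a list of G2 and M phase genes, matched by Ensembl identifier to GENCODE vM21 symbols, and all 40 were found among the 46517 genes listed. Of these, 38 had enough reads to be tested, while Cdc25c and Ttk did not. The comparison asks how far these genes differ between cKO and Control kidneys, and whether they differ alike.

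Cells enter mitosis when cyclin B and CDK1 become active, aided by the transcription factor FOXM1 and the polo-like and Aurora kinases. Kinesin motors and spindle proteins then build the spindle, kinetochores tie chromosomes to it, and the spindle assembly checkpoint holds back the anaphase-promoting complex until every chromosome is attached. Most of these genes are transcribed in late S phase, G2 and M phase and are nearly silent in resting cells, and tubule cells of the adult kidney divide rarely unless the tubule is injured.

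The cKO group comprised 4 mice of the genotype Xpr1lox/lox/Pax8-rtTA/LC1 (KO16, KO18, KO19 and KO20), which drank water with 2 mg/ml doxycycline over 2 weeks, starting when they were 8 weeks old. In them, Pax8-rtTA, an activator expressed along the renal tubule, switches on the Cre recombinase of LC1 when doxycycline is present, and Cre removes the floxed exon 2 of Xpr1, which encodes a phosphate exporter and retrovirus receptor. The Control group comprised 4 littermates (C10, C11, C13 and C14) that were Xpr1lox/lox, received the same doxycycline and lacked both transgenes. The presence of rtTA and Cre and the loss of Xpr1 therefore cannot be told apart. Each library came from whole kidney, so a higher value may reflect more cells of a type or more RNA per cell, and these cannot be told apart.

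Libraries held 20366113 (KO16) to 26155030 (C13) reads assigned to genes. Levels are given in CPM, a gene's count relative to its library's size, with that size scaled by the trimmed mean of M values (TMM). Xpr1 followed the labels in every library, at 5.74 to 26.5 CPM in cKO kidneys and 80.2 to 126 CPM in Control kidneys (log2 fold change -2.65, SE 0.44, adjusted p = 0.00491). This count is given for the whole gene, so it includes exons outside the deleted one, and reads per exon were not available. Libraries also leaned to genes of short or long exonic length. That length is the union of all annotated exons of a gene, so it can exceed the length of any single transcript. The slope of log2 CPM on log2 exonic length, relative to the mean library, was -0.47 in KO16, -0.20 in KO20, 0.23 in KO18 and 0.17 in KO19, against 0.28 in C11 and -0.08 to 0.04 in the other Control libraries. Reads assigned to no gene made up 52.0% of KO16 and 56.2% of KO20, against 43.2% to 44.1% of the other cKO libraries, 39.7% of C11 and 45.0% to 47.5% of the other Control libraries. Counts are also given without KO16, KO20 and C11. The cKO libraries that then remain, KO18 and KO19, both lean to genes of long exonic length. In these refits the lean and the genotype therefore cannot be told apart.

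Mitosis and spindle genes were higher in cKO kidneys in part. Of the 38 tested, 13 rose, 0 fell and 25 did not pass edgeR's quasi-likelihood test (Benjamini-Hochberg adjusted p under 0.05 over 15382 genes). Among all tested genes, 7.5% were called higher, 6.61% lower and 14.1% in either direction. The 13 were Tpx2, Cdk1, Aurkb, Aurka, Kif23, Ube2c, Ndc80, Racgap1, Hmmr, Ccnb2, Bub1b, Cdc20 and Anln. At an unadjusted p under 0.05, 26 of the 38 were higher and 0 lower, where 4160 of all 15382 genes passed in either direction. DESeq2 called 19 higher and 0 lower, with 11.1% of all tested genes called higher, and limma-voom 13 higher and 0 lower, with 6.72%.

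The log2 fold change was above 0 for 37 of the 38 genes, against 7760 of all 15382 tested. Its median was 1.06 over the 38 genes and 0.01 over all tested genes. In 15 of the 38 every cKO library lay above every Control library, an arrangement found in 11.2% of all tested genes, and in 0 of them did every cKO library lie below, which 11.6% of all tested genes showed. These 15 included Cdca8, Mad2l1 and Nuf2, which did not pass the test, and left out Kif23, which passed although KO16 lay below C14.

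**Figure D1:**
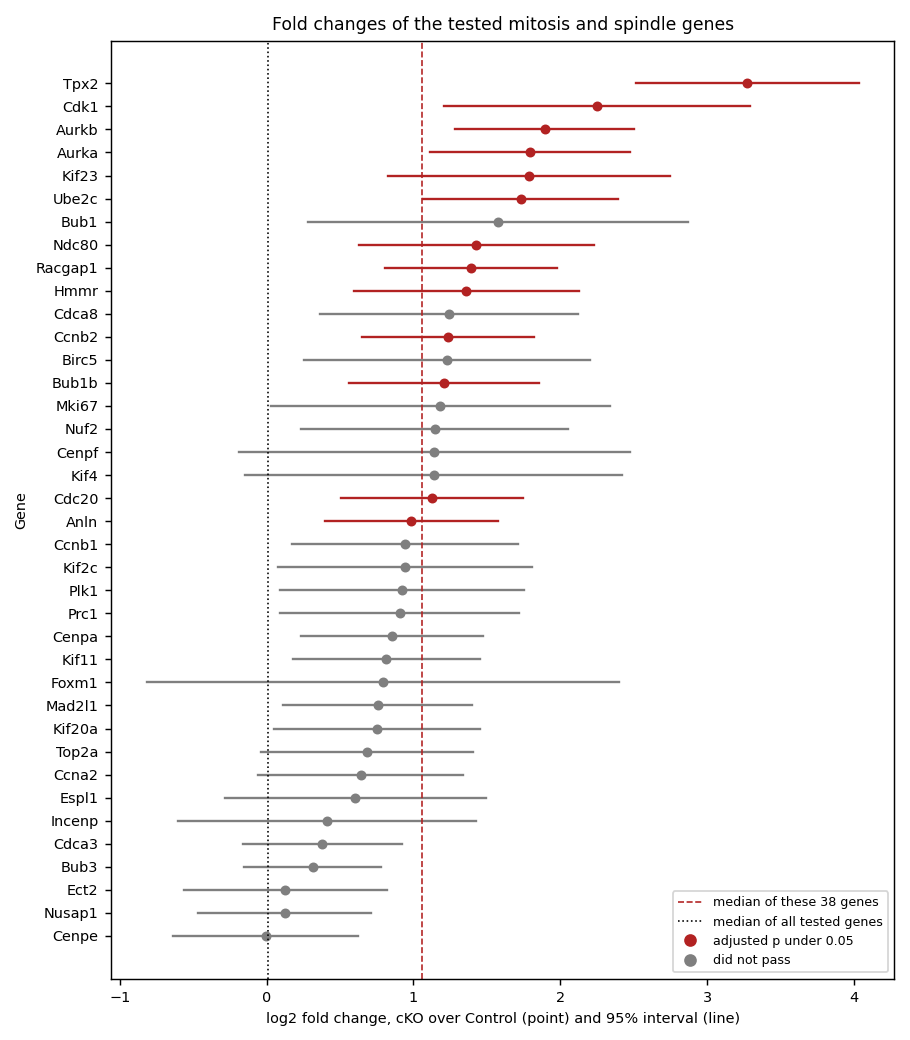
Log2 fold change of cKO over Control for the 38 tested mitosis and spindle genes (horizontal axis, points) with its 95% interval (lines), sorted by size; red marks the 13 genes called higher and grey the 25 that did not pass. The dashed line is the median of these genes (1.06) and the dotted line that of all tested genes (0.01); Tpx2 (3.27) stands at the top and Cenpe (-0.01) at the bottom.

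The number of calls depended on which libraries entered. Leaving out C13, C14, KO19 or C10 left 6, 7, 7 and 8 of these genes called, where 3.37%, 3.77%, 6.25% and 4.58% of all tested genes were called higher, and leaving out KO16 gave 14 (8.71%). Without KO16 and KO20 together 19 genes rose, 11 of the 13 among them, against 8.17% of all tested genes. Without KO16, KO20 and C11, 29 rose, all of the 13 among them, where 29.5% of all tested genes were called higher. The median log2 fold change of the tested genes lay between 0.90 and 1.41 under every alternative, and 0 fell under any of them. Tpx2, Cdk1, Aurkb, Aurka, Ube2c and Racgap1 were called under all 19 alternatives.

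**Figure D2:**
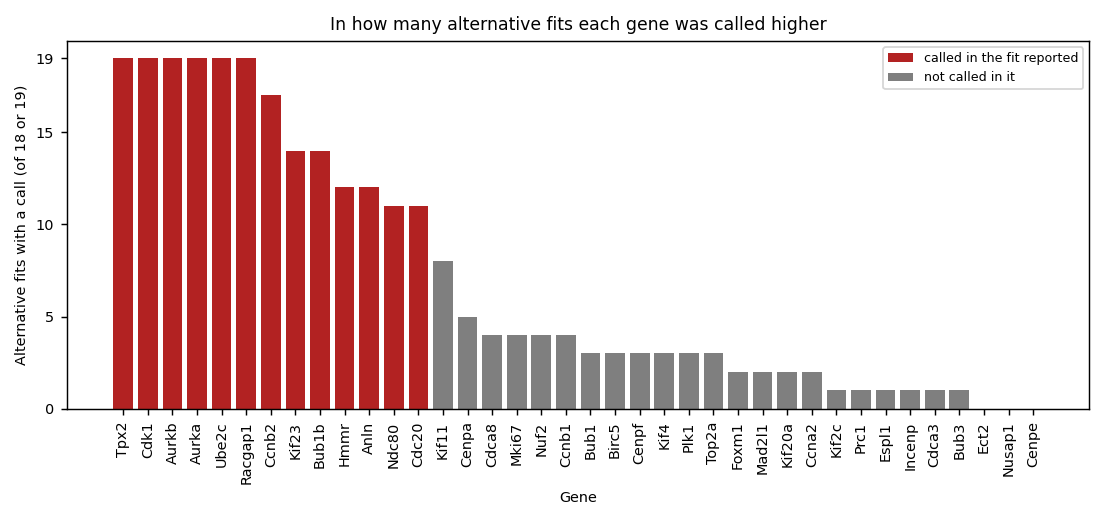
Number of alternative fits in which each of the 38 tested genes was called higher (vertical axis, bars; 18 or 19 alternatives per gene), in descending order. Tpx2, Cdk1, Aurkb, Aurka, Ube2c and Racgap1 were called in all 19, the other red bars in 11 to 17, and Ect2, Nusap1 and Cenpe in none.

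The promoters of these genes share sequence elements that the choice of genes did not use, and a few are shown because genes with the same elements differed in their calls. Known elements of G2 and M phase promoters are the cell cycle genes homology region (CHR), which is bound by the MuvB core of the DREAM and FOXM1 complexes, and the CCAAT box, which is bound by NF-Y. The windows span 120 bases before to 30 bases after the RefSeq transcription start (RefSeq, GRCm38.p6), and 33 of the 40 genes matched an entry. Ccna2, Cdc25c, Foxm1, Tpx2, Aurkb, Incenp and Kif20a had none. The letters searched on both strands for the CHR were TTTGAA with its variant TTTAAA, and as a further variant TTCGAA, and those for the box were CCAAT. A CHR and a CCAAT can share at most 1 end letter. Capitals mark the matches, so that ATTGG is a CCAAT on the other strand. Cdk1, Ccnb2, Ube2c, Racgap1 and Kif23 rose, while Kif11 and Nusap1 did not pass.
Cdk1 (chr10:69352883-69353032, minus strand): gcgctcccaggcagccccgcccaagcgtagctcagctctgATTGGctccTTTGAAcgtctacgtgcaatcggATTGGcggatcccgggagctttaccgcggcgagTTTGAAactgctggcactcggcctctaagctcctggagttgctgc
Ccnb2 (chr9:70421525-70421674, minus strand): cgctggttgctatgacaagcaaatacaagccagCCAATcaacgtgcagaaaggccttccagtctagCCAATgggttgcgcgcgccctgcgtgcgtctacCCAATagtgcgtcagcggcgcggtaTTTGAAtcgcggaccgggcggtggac
Ube2c (chr2:164769809-164769958, plus strand): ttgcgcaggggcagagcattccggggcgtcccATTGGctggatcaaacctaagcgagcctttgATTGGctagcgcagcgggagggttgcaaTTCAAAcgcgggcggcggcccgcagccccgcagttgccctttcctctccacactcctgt
Racgap1 (chr15:99651627-99651776, minus strand): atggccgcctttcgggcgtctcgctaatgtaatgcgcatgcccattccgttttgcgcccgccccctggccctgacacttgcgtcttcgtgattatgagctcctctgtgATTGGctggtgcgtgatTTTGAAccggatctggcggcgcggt
Kif23 (chr9:61946770-61946919, minus strand): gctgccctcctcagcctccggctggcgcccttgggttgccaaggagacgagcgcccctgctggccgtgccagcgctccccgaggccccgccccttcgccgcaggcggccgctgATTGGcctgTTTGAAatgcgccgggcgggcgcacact
Kif11 (chr19:37376262-37376411, plus strand): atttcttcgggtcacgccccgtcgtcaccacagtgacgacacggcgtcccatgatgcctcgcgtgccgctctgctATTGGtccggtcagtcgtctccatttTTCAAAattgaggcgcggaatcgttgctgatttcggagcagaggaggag
Nusap1 (chr2:119618178-119618327, plus strand): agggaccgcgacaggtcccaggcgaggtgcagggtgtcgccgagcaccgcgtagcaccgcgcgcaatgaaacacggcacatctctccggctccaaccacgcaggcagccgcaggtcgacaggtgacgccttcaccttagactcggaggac
All but Nusap1 hold both elements in this window, and Nusap1 holds neither. Among the windows not printed, that of Bub1b, which rose, holds no CHR. Those of Ndc80 and Anln, which also rose, hold no CCAAT.

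A CHR lay in the windows of 27 of the 33 genes (81.8%), a CCAAT in those of 25 (75.8%), and both in those of 23 (69.7%). Over all 27025 genes with a window the shares were 16.2%, 27% and 4.11%. Over the 11536 tested genes with a window they were 11.3%, 30% and 3.32%. A second list, of other mitotic genes, is described below. Over its 77 genes with a window the shares lay in between, at 41.6%, 49.4% and 26%. Among the 11 mitosis and spindle genes with a window that rose, 10 held a CHR, 9 a CCAAT and 8 both. Among the 22 others the counts were 17, 16 and 15. The elements were thus present in both sets, including Bub3, Cenpe and Ect2, whose log2 fold changes were 0.31, -0.01 and 0.13. A match gives the letters alone and says nothing of binding.

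**Figure D3:**
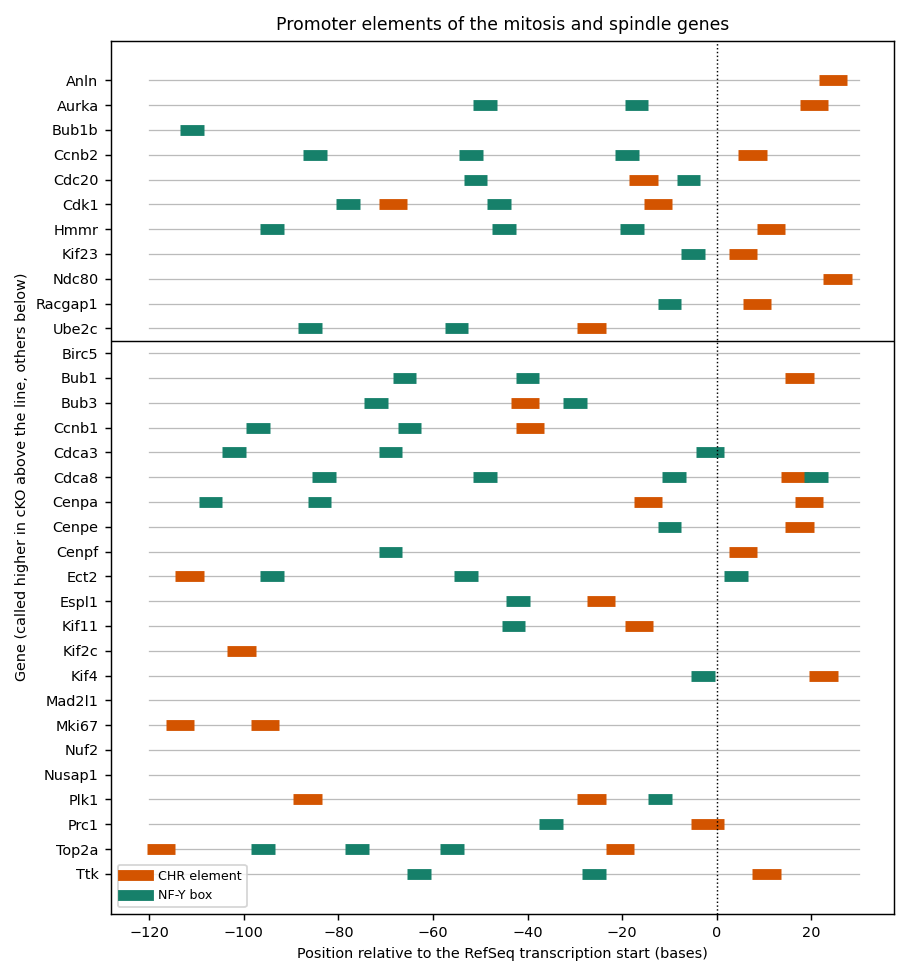
Positions of CHR elements (orange) and CCAAT boxes (green) in the windows of the 33 genes with a RefSeq entry, in bases from the transcription start (dotted line at 0); genes called higher stand above the horizontal line and the others below it. Of the 11 genes above the line 8 hold both elements, and of the 22 below it 15 do.

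Among cyclins, CDK1 and their activators, 2 of 5 tested genes rose. Cdk1, the kinase that drives entry into mitosis (ENSMUSG00000019942, chromosome 10, 69335146 to 69352938 on the minus strand, GRCm38), had 15.8, 6.24, 5.45 and 9.24 CPM in KO16, KO18, KO19 and KO20, against 2.03, 0.762, 2.17 and 2.75 CPM in C10, C11, C13 and C14. Every cKO library lay above every Control library, and KO16 stood highest. The log2 fold change was 2.25 (SE 0.46, adjusted p = 0.0125), and it was 1.29 without KO16, KO20 and C11, its lowest value.

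Ccnb2, which encodes cyclin B2 (ENSMUSG00000032218, chromosome 9, 70407692 to 70421547, minus strand), had 3.03, 2.98, 2.30 and 1.90 CPM in the cKO libraries, against 1.11, 0.922, 1.04 and 1.24 CPM in the Control libraries. The groups did not overlap, and the spread within Control was small (log2 fold change 1.24, SE 0.26, adjusted p = 0.0135; 0.0574 without C13). Its partner gene Ccnb1, encoding cyclin B1, averaged 0.927 ± 0.308 CPM in cKO and 0.485 ± 0.103 CPM in Control (SD, n = 4 each) and did not pass (0.94, adjusted p = 0.107). Ccna2, encoding cyclin A2, averaged 3.87 ± 1.16 and 2.49 ± 0.610 CPM (0.64, adjusted p = 0.223). Part of Ccna2, 12.5% of its exonic length, overlaps exons of Exosc9 on the other strand.

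Foxm1, the transcription factor of many G2 and M phase genes, split each group. It had 0.478, 2.34, 2.18 and 0.422 CPM in KO16, KO18, KO19 and KO20, against 0.338, 1.84, 0.435 and 0.532 CPM in C10, C11, C13 and C14. KO18, KO19 and C11 were high and the other 5 libraries low, and the log2 fold change of 0.79 had an SE of 0.71 (adjusted p = 0.534). The 3 high libraries are those that leaned most to genes of long exonic length. The log2 fold change was 1.12 with the length slope as a covariate (adjusted p = 0.0298) and 0.85 once the length trend was removed (0.374). Leaving out KO16, KO20 and C11 takes away the low cKO libraries and the high Control library of this gene, so its value of 2.32 there describes the choice of libraries. Cdc25c, the phosphatase that activates CDK1, held 2 to 8 reads per library and was not tested. With no filter on low counts its log2 fold change was 0.43 (adjusted p = 0.648).

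Among mitotic kinases and the chromosomal passenger complex, 3 of 7 rose. Tpx2, which activates Aurora A on spindle microtubules and nucleates new ones (ENSMUSG00000027469, chromosome 2, 152847964 to 152895321, plus strand), changed most. It had 7.86, 13.6, 11.03 and 9.95 CPM in KO16, KO18, KO19 and KO20, against 0.868, 1.44, 1.43 and 0.621 CPM in the Control libraries. Each cKO library held more than every Control library by a wide margin, and the ratio of the means was 9.73 (log2 fold change 3.27, SE 0.34, adjusted p = 0.000671). Its tested neighbours on the chromosome, Bcl2l1 at 16235 bases and Foxs1 at 36576 bases, had log2 fold changes of 0.14 (adjusted p = 0.657) and 0.52 (0.517).

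Aurora kinase genes rose with it. Aurka, encoding the kinase that TPX2 activates (chromosome 2, 172356190 to 172370535, minus strand), had 3.77, 2.62, 2.70 and 2.32 CPM in the cKO libraries, against 0.579, 0.922, 0.652 and 1.11 CPM in the Control libraries (1.79, SE 0.30, adjusted p = 0.00517). Aurkb, the kinase of the chromosomal passenger complex (chromosome 11, 69045647 to 69051664, plus strand), had 2.18, 2.18, 1.91 and 1.65 CPM against 0.531, 0.401, 0.522 and 0.665 CPM (1.89, SE 0.27, adjusted p = 0.0024). For both genes the lowest cKO library held more than 2 times the CPM of the highest Control library.

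Other subunits of Aurora B's complex did not pass. Birc5, encoding survivin, had 6.27, 2.14, 2.55 and 2.99 CPM in the cKO libraries, against 1.45, 0.882, 2.39 and 1.20 CPM in the Control libraries (1.23, adjusted p = 0.0981). Cdca8, encoding borealin, had 6.06, 2.66, 2.36 and 2.36 CPM against 1.98, 0.963, 1.39 and 1.33 CPM (1.24, adjusted p = 0.0669). In both, KO16 held more than 2 times the level of any other library. Incenp, the scaffold of the complex, had 2.82, 4.93, 5.09 and 2.19 CPM against 1.98, 5.49, 1.56 and 2.26 CPM, with C11 highest of all (0.41, adjusted p = 0.616). Plk1, polo-like kinase 1, averaged 1.13 ± 0.376 and 0.594 ± 0.213 CPM (0.92, adjusted p = 0.142).

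Of 4 tested spindle assembly checkpoint genes 1 rose. Bub1b, encoding the checkpoint inhibitor BUBR1 (chromosome 2, 118598211 to 118641591, plus strand), had 2.23, 2.50, 2.61 and 2.07 CPM in the cKO libraries, against 0.772, 1.52, 0.913 and 0.842 CPM in the Control libraries. The groups did not overlap (1.21, SE 0.29, adjusted p = 0.0230), but the adjusted p was 0.0601 to 0.0897 without C10, C13, C14 or KO19. Bub1, the kinase that recruits the checkpoint to kinetochores, had a larger log2 fold change, 1.58, with a wider error (SE 0.58, adjusted p = 0.109); C10 held 1 read of it. Mad2l1, whose product MAD2 binds CDC20, averaged 10.8 ± 2.14 in cKO and 6.41 ± 1.95 CPM in Control, with no overlap (0.76, adjusted p = 0.121).

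Bub3, a partner of both BUB1 and BUBR1 and the most abundant of the 40 genes, did not pass. It had 60.7, 38.6, 41.1 and 47.5 CPM in the cKO libraries, against 39.6, 32.8, 39.4 and 39.4 CPM in the Control libraries. KO18 lay within the Control range, and the log2 fold change of 0.31 had a 95% interval of -0.15 to 0.78 (adjusted p = 0.380). Without KO16, KO20 and C11 it was -0.02. Ttk, the checkpoint kinase MPS1, held 4 to 17 reads per library and was not tested (0.65 with no filter, adjusted p = 0.457).

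Among centromere and kinetochore genes 1 of 5 rose. Ndc80 (chromosome 17, 71496100 to 71526857, minus strand), the microtubule-binding subunit of the outer kinetochore, had 1.28, 1.06, 1.55 and 1.31 CPM in the cKO libraries, against 0.772, 0.281, 0.348 and 0.532 CPM in the Control libraries (1.43, SE 0.36, adjusted p = 0.0273). Nuf2, its partner in the same complex, had 1.33, 1.44, 1.88 and 1.31 CPM against 0.482, 0.281, 1.09 and 0.842 CPM (1.15, adjusted p = 0.0982). Neither gene's groups overlapped. The call of Ndc80 rested on 7 to 51 reads per library, and its adjusted p was 0.0576 to 0.103 without C11, C13, C14, KO19 or KO20. Cenpa, the centromeric histone H3 variant, averaged 4.76 ± 1.44 and 2.62 ± 0.374 CPM (0.85, adjusted p = 0.0725; 0.0372 without KO18).

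Cenpe, a kinetochore motor, had 3.13, 4.99, 4.12 and 3.50 CPM in the cKO libraries, against 4.20, 2.69, 5.48 and 3.50 CPM in the Control libraries. The groups overlapped throughout, and the log2 fold change of -0.01 had a 95% interval of -0.63 to 0.62 (adjusted p = 0.991). The sign turned with library totals alone (0.36) and with upper-quartile factors (0.12). Cenpf, which encodes a large kinetochore and nuclear matrix protein, has the longest exonic length of these genes. It had 0.584, 4.80, 3.33 and 1.01 CPM in KO16, KO18, KO19 and KO20, against 1.06, 0.842, 1.22 and 1.33 CPM in the Control libraries. KO18 and KO19 lay above all Control libraries and KO16 below all of them (1.14, adjusted p = 0.254). With the length slope as a covariate it passed (1.15, adjusted p = 0.0410), but not once the length trend was removed (1.02, 0.101).

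**Figure D4:**
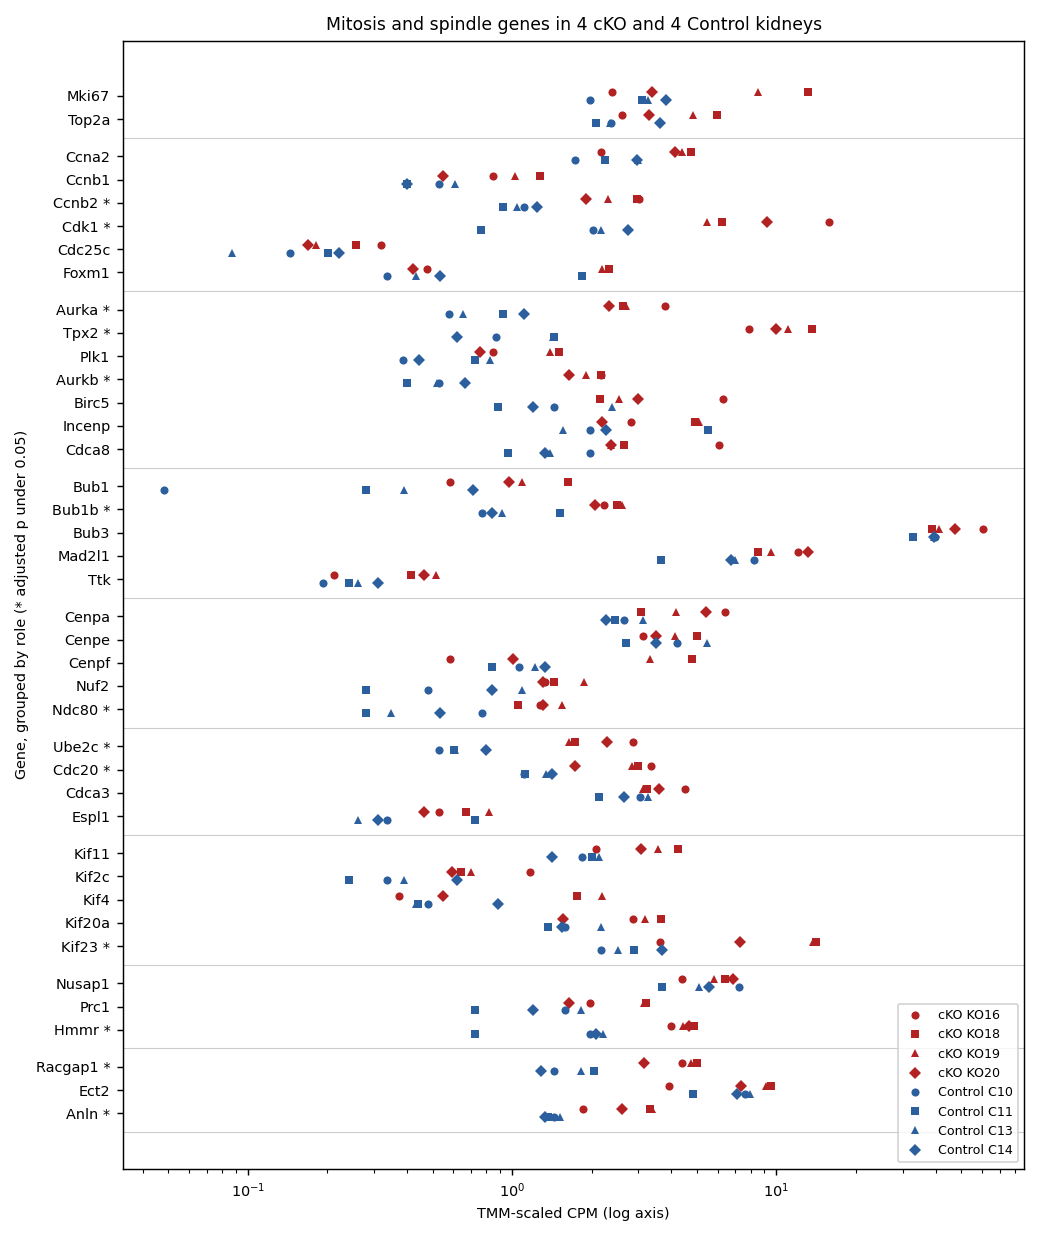
TMM-scaled CPM of the 40 genes (horizontal log axis) in each cKO library (red) and each Control library (blue), grouped by role, with an asterisk at the 13 genes called higher. In Tpx2 the cKO libraries (7.86 to 13.6 CPM) stand far to the right of the Control libraries (0.621 to 1.44 CPM), while in Cenpe, Nusap1 and Ect2 the groups lie on top of each other.

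Of 4 genes grouped under the anaphase-promoting complex and mitotic exit, 2 rose. Ube2c, the ubiquitin-conjugating enzyme of that complex (chromosome 2, 164769898 to 164778822, plus strand), had 2.87, 1.73, 1.64 and 2.28 CPM in the cKO libraries, against 0.531, 0.602, 0.608 and 0.798 CPM in the Control libraries (1.73, SE 0.30, adjusted p = 0.00547). Exons of Tnnc2 on the other strand overlap 22.8% of its length, and the strand setting of the counting is not known. Cdc20, the activator of the complex (chromosome 4, 118432901 to 118437352, minus strand), had 3.35, 3.01, 2.85 and 1.73 CPM against 1.11, 1.12, 1.35 and 1.42 CPM (1.13, SE 0.28, adjusted p = 0.0256). Its adjusted p was 0.0561 to 0.0817 without C10, C11, C13, C14, KO18 or KO19. Cdca3, placed in this group although it is a trigger of mitotic entry, averaged 3.61 ± 0.634 and 2.77 ± 0.496 CPM (0.38, adjusted p = 0.355). Espl1, the separase that cuts cohesin, averaged 0.621 ± 0.157 and 0.408 ± 0.212 CPM (0.61, adjusted p = 0.373).

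Of 5 kinesin motors of the spindle 1 rose. Kif23, the MKLP1 motor of the spindle midzone (chromosome 9, 61915905 to 61946774, minus strand), had 3.61, 14.2, 13.8 and 7.25 CPM in KO16, KO18, KO19 and KO20, against 2.17, 2.89, 2.52 and 3.68 CPM in the Control libraries. KO18 and KO19 were highest and KO16 lay just below C14 (1.79, SE 0.43, adjusted p = 0.0231), and the adjusted p was 0.0505 to 0.0796 without C10, C11, C13, C14 or KO19. Kif11, the Eg5 motor that separates the spindle poles, had 2.07, 4.26, 3.58 and 3.08 CPM against 1.83, 2.01, 2.13 and 1.42 CPM (0.82, adjusted p = 0.0922). Without KO16, the only cKO library within the Control range, it passed (0.98, adjusted p = 0.0234).

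Kif4, a chromosome-bound motor, had 0.372, 1.76, 2.18 and 0.548 CPM in KO16, KO18, KO19 and KO20, against 0.482, 0.441, 0.435 and 0.887 CPM in the Control libraries, so that KO18 and KO19 stood apart from KO16 and KO20 (1.14, adjusted p = 0.239). Kif2c, the MCAK microtubule depolymerase, averaged 0.774 ± 0.267 and 0.397 ± 0.161 CPM (0.94, adjusted p = 0.150). Kif20a, the MKLP2 motor of cytokinesis, averaged 2.81 ± 0.895 and 1.67 ± 0.350 CPM (0.75, adjusted p = 0.154). Exons of Cdc23 on the other strand overlap 29.3% of Kif20a, and those of Pdzd11 15.1% of Kif4.

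Among the 3 spindle-associated proteins 1 rose. Hmmr, a microtubule-associated protein of the spindle poles (chromosome 11, 40701395 to 40733422, minus strand), had 3.99, 4.86, 4.42 and 4.68 CPM in the cKO libraries, against 1.98, 0.722, 2.22 and 2.08 CPM in the Control libraries (1.36, SE 0.34, adjusted p = 0.0276). The cKO libraries lay close together and C11 was lowest. The adjusted p was 0.0526 to 0.0658 without C10, C13, C14, KO18, KO19 or KO20. Prc1, which bundles antiparallel microtubules in the midzone, averaged 2.49 ± 0.802 and 1.33 ± 0.483 CPM (0.91, adjusted p = 0.141). Nusap1, which bundles microtubules near chromosomes, had 4.41, 6.37, 5.82 and 6.83 CPM in the cKO libraries, against 7.23, 3.69, 5.08 and 5.54 CPM in the Control libraries. C10 was highest of all 8 (0.12, 95% interval -0.47 to 0.71, adjusted p = 0.817), and without C11 the value was -0.03.

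Of 3 cytokinesis genes 2 rose. Racgap1, which forms the centralspindlin complex with KIF23 (chromosome 15, 99620496 to 99651656, minus strand), had 4.41, 5.02, 4.76 and 3.16 CPM in the cKO libraries, against 1.45, 2.05, 1.83 and 1.29 CPM in the Control libraries (1.39, SE 0.26, adjusted p = 0.00822). Anln, the contractile ring scaffold anillin (chromosome 9, 22332012 to 22389188, minus strand), had 1.86, 3.33, 3.39 and 2.62 CPM against 1.45, 1.36, 1.52 and 1.33 CPM (0.99, SE 0.26, adjusted p = 0.0359). The groups of both genes stood apart. For Anln the adjusted p was 0.0696 to 0.118 without C10, C11, C13, C14, KO18 or KO19. Ect2, the exchange factor that centralspindlin recruits to start furrowing, had 3.93, 9.57, 9.12 and 7.34 CPM against 7.62, 4.85, 7.91 and 7.09 CPM. KO16 was lowest of all 8 libraries, and the groups overlapped (0.13, 95% interval -0.56 to 0.82, adjusted p = 0.839). Without C11 or KO18 the value was -0.01.

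Neither of the proliferation markers passed. Mki67, encoding Ki-67 (chromosome 7, 135689784 to 135716361, minus strand), had 2.39, 13.2, 8.54 and 3.37 CPM in KO16, KO18, KO19 and KO20, against 1.98, 3.09, 3.26 and 3.81 CPM in the Control libraries. KO18 and KO19 stood above every Control library, and KO16 and KO20 lay within the Control range (1.18, SE 0.51, adjusted p = 0.173). It passed with the length slope as a covariate (1.27, adjusted p = 0.00714) and also once the length trend was removed (1.18, 0.0332). Top2a, the topoisomerase that untangles sister chromatids, had 2.60, 5.95, 4.85 and 3.29 CPM against 2.36, 2.09, 2.35 and 3.63 CPM (0.68, adjusted p = 0.210; 0.76 and 0.0436 with the slope, 0.78 and 0.0624 with the trend removed).

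The SD of the genes' log2 fold changes was larger than the median error of a single gene. The genes share the same libraries, so their errors are not independent, and the spread was not tested. The middle of their log2 fold changes ran from 0.76 to 1.33 (quartiles) and their SD was 0.63, where the median SE of a single gene was 0.33. The 95% interval of 28 genes included the median of 1.06. The intervals of Tpx2, Cdk1, Aurkb, Aurka and Ube2c lay above it, that of Ube2c only just, and the intervals of Cdca3, Bub3, Ect2, Nusap1 and Cenpe lay below it. The interval of Tpx2 ran from 2.51 to 4.03, and that of Cdk1, the next highest, from 1.21 to 3.29. The genes near 0 were not those with the fewest reads. The 13 that rose held 7 to 455 reads per library and Control means of 0.483 to 2.81 CPM, whereas Bub3, Ect2, Nusap1 and Cenpe had Control means of 37.8, 6.87, 5.39 and 3.97 CPM.

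Levels between genes were compared as CPM per kb of exonic length. Because that length joins the exons of all annotated transcripts, it can understate genes whose expressed transcripts are shorter. The order of the genes therefore depends in part on the annotation. Bub3 was highest, at 6.71 in cKO and 5.40 in Control. In cKO kidneys the next levels were those of Tpx2 (2.27), Cdk1 (1.86), Ccnb2 (1.67), Cdc20 (1.46), Nusap1 (1.44) and Ect2 (1.39). In Control kidneys Nusap1 (1.33) and Ect2 (1.28) followed Bub3, with Tpx2 at 0.233 and Cdk1 at 0.391. Cdc25c was lowest in both groups, at 0.047 in cKO and 0.0332 in Control.

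Exonic length moved with the differences among the 4 cKO libraries. Over the 38 tested genes the median difference of log2 CPM from the Control mean (prior count 2) was 0.75, 1.21, 1.16 and 0.74 in KO16, KO18, KO19 and KO20, with 30, 38, 38 and 33 genes above 0. The 19 shorter genes, of at most 5177 bases, had medians of 1.37, 1.28, 1.05 and 0.75 in these libraries, and the 19 longer ones, of at least 5386 bases, 0.38, 1.19, 1.27 and 0.36. KO16 was the highest cKO library for 12 genes with a median length of 3174 bases, among them Aurka, Birc5, Cdca8, Cdk1 and Ube2c. KO18 was highest for 17 genes with a median of 5754 bases, among them Mki67, Top2a, Cenpf and Kif23. Over all tested genes the shorter and longer sets had medians of 0.29 and -0.81 in KO16 and -0.09 and 0.25 in KO18, so the lean was shared by the whole library, and its part in the differences among these genes was not tested. With the slope as a covariate 28 of the 38 rose, against 16.6% of all tested genes called higher; with the length trend removed 13 rose, 11 of the 13 named above among them, and the calls of Ccnb2 and Cdc20 were lost.

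**Figure D5:**
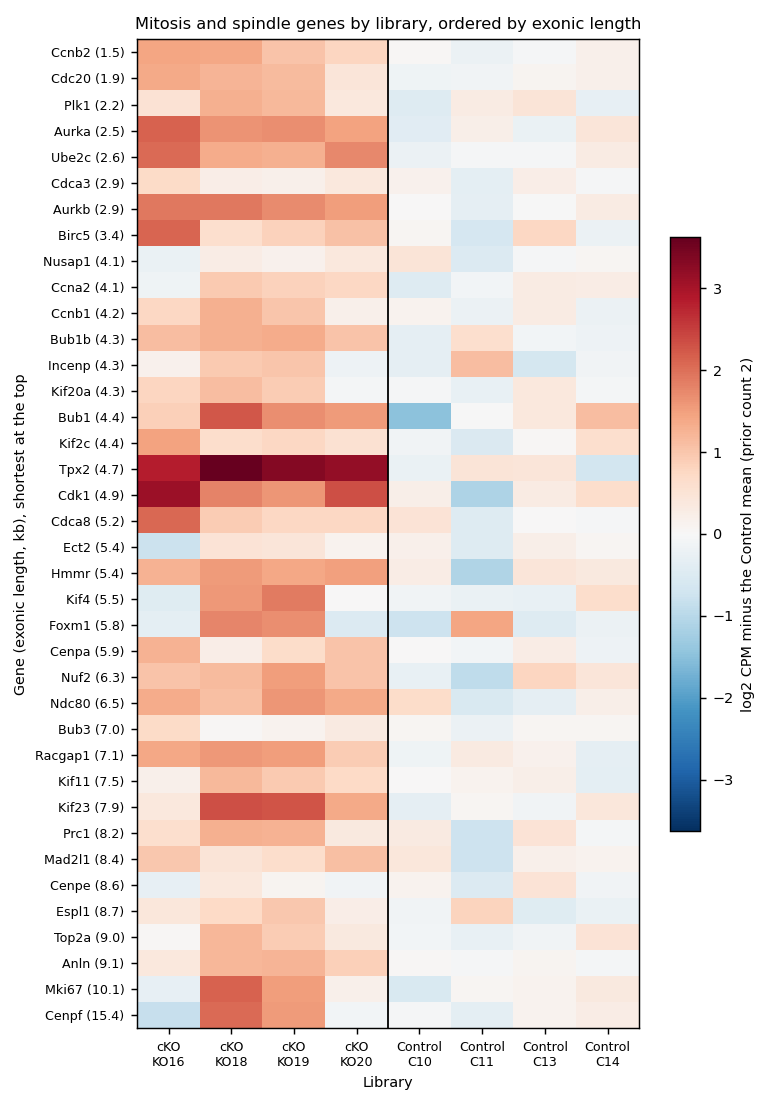
Difference of log2 CPM from the Control mean (colour, prior count 2) for the 38 tested genes (rows, shortest exonic length at the top, in kb) in the 4 cKO and 4 Control libraries (columns). KO18 and KO19 lie above 0 in all rows, whereas KO16 is deepest in the upper rows (median 1.37 over the shorter 19 genes) and pale or blue in many of the lower ones (0.38 over the longer 19).

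Other genes of the mitotic machinery were followed in a second list, chosen by role but with earlier results of these data known. Of its 94 genes 89 were tested, 18 rose, 1 fell and 70 did not pass, against 7.5% of all tested genes called higher. Their median log2 fold change was 0.58, and 73 of the 89 were above 0. The 5 with the smallest p were Psrc1, Ckap2, Ncaph, Gtse1 and Dlgap5. Psrc1, a regulator of spindle dynamics, had 42.1, 17.6, 19.2 and 34.3 CPM in KO16, KO18, KO19 and KO20, against 0.434, 1.56, 0.478 and 0.266 CPM in the Control libraries (5.34, SE 0.60, adjusted p = 0.000896). Its estimate was above that of Tpx2, with 95% intervals that overlapped. Gtse1, a microtubule-binding protein of G2 and S phase (3.44), Ckap2, a spindle protein (2.34), Dlgap5, also known as HURP (2.11), and Ncaph, a condensin subunit (1.87), rose at adjusted p-values of 0.00177 to 0.00478. The gene that fell was Kif20b, a kinesin of cytokinesis, at 7.33, 29.5, 20.7 and 11.2 CPM against 91.1, 41.4, 63.4 and 51.6 CPM (-1.85, SE 0.45, adjusted p = 0.0241; 0.0513 to 0.0686 without C10, C13, C14 or KO20). Without C10, C13 or C14 the number that rose was 11.

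S phase genes and the inhibitor of the cyclin-dependent kinases were set beside them. Of 40 S phase genes 39 were tested, 8 rose, 2 fell and 29 did not pass, with a median log2 fold change of 0.51, where 7.5% of all tested genes were called higher and 6.61% lower. Ccne1, encoding cyclin E1, rose by 2.27 (SE 0.33, adjusted p = 0.0024), Chaf1b, a chromatin assembly factor, rose by 1.47 (SE 0.28, adjusted p = 0.00918), and Mcm10, a replication initiation factor, fell by 1.96 (SE 0.32, adjusted p = 0.00466). Without C10, C13, C14 or KO19 the number that rose was 3, 2, 3 and 4. Cdkn1a, encoding the CDK inhibitor p21, had 392, 118, 148 and 303 CPM in KO16, KO18, KO19 and KO20, against 7.62, 11.8, 4.56 and 5.27 CPM in the Control libraries (5.04, SE 0.52, adjusted p = 0.000671). Every cKO library lay above every Control library, with KO16 and KO20 highest.

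Summed markers of some cell types differed between the groups while those of others overlapped, and their part in the results was not tested. The summed CPM of 8 macrophage markers was 178 to 430 in cKO and 84.5 to 106 in Control, with 7 of the 8 higher. That of 5 injured tubule markers was 197 to 589 in cKO and 12.4 to 45.2 in Control, with all 4 tested higher. That of 8 proximal tubule markers was 2442 to 4909 in cKO and 8497 to 18604 in Control, with 6 of the 8 lower. Fibroblast and pericyte markers summed to 273 to 314 in cKO and 139 to 256 in Control (1 of 7 higher). The sums of T and NK cell markers overlapped, at 6.33 to 12.7 in cKO and 4.95 to 7.91 in Control (1 of 7 higher). Summed markers of the loop, distal tubule and collecting duct (4274 to 5964 and 4082 to 5094, 1 of 6 higher), of podocytes (64.9 to 152 and 125 to 315, 0 of 3), B and plasma cells (22.4 to 75.5 and 28.1 to 77.7, 0 of 5), erythroid cells (82.6 to 609 and 152 to 246, 0 of 4 tested) and neutrophils with their precursors (0.80 to 6.54 and 0.521 to 5.06, 0 of 2 tested) overlapped between cKO and Control. Endothelial markers summed to 178 to 223 in cKO and 252 to 324 in Control, with 0 of 5 called. Ly6g and Mpo, defining markers of neutrophils and their precursors, had at most 1 read in any library.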

How the data were processed

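The authors deposited raw counts of reads per Ensembl gene, 1 file per kidney library, as the whole numbers in the files show. Per the labels' protocols, libraries were made with a stranded mRNA kit from total RNA of whole kidney. Per the submitters' processing notes, cutadapt 1.3, STAR 2.4.0g and HTSeq 0.6.1 were used with genome build GRCm38. The sources used here do not give the annotation release or the strand setting of the counting, so reads of overlapping genes cannot be told apart. Closing lines that name no gene (39.7% to 56.2% of each file) were left out of library sizes and tests. GENCODE vM21 (GRCm38) gave the symbols, positions and exonic lengths; 46005 of 46517 identifiers matched it and 512 did not.

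Counts of all genes in 4 cKO and 4 Control libraries were fitted with no covariate in edgeR 4.0.16, run in R 4.3.3. TMM gave the scaling factors, and filterByExpr kept genes by a minimum count of 10 and a minimum total of 15. The quasi-likelihood F test gave p-values, adjusted by Benjamini and Hochberg's method over 15382 genes at a threshold of 0.05, and also the standard errors and 95% intervals. For log2 CPM a prior count of 2 was used. The common biological coefficient of variation, over all tested genes, was 0.386. In the genes with few reads, counting error adds to it, and the shares of these errors were not measured per gene. The labels name separate mice and call the Controls littermates of the cKO mice, but do not say which mice share a litter, nor give a batch. The p-values set the difference between the groups against the spread of libraries within them. The fit treated the mice as independent, so any litter effect was not modelled. No 2 libraries of a group looked like copies: their counts differed by a chi-square of at least 8.01 per degree of freedom.

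The members and gene lists were chosen with earlier results of these data known. Named were all 40 genes, Xpr1, Cdkn1a, the 5 other mitotic genes and 3 S phase genes with the smallest p, other mitotic genes called lower, and the tested neighbours of the gene with the smallest p. No set test was made. Alternatives were other scalings (library totals alone, RLE, upper quartile), limma-voom (limma 3.58.1), DESeq2 1.42.0, no filter, a mean of at least 1 CPM, leaving out each library, KO16 with KO20, or these with C11, the length slope as a covariate, and the length trend removed.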

Additional observations from a re-analysis of the deposited data

Results flagged for a closer look

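In 53 genes examined (106 groups of 4 libraries), 9 groups held a library set apart from the other 3 by a gap above Dixon's 95% critical value, where chance flags about 1 in 20 groups. For the mitosis and spindle genes 6 groups were marked. Among cKO libraries, KO16 held 6.06 CPM of Cdca8, against 2.36 to 2.66 CPM in the others. Among Control libraries, C11 held 1.84 CPM of Foxm1 (others 0.338 to 0.532), 0.722 CPM of Espl1 (0.261 to 0.338), 32.8 CPM of Bub3 (39.4 to 39.6) and 0.722 CPM of Hmmr (1.98 to 2.22). C14 held 0.887 CPM of Kif4 (0.435 to 0.482).

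Outside the 40 genes, C11 held 1.56 CPM of Psrc1, against 0.266 to 0.478 CPM in the other Control libraries, C14 held 0.532 CPM of Dlgap5 (0.241 to 0.281), and KO16 held 5.47 CPM of Chaf1b, against 3.0 to 3.42 CPM in the other cKO libraries. C11, marked 5 times, is also the Control library that leaned most to genes of long exonic length. KO16 is the cKO library that leaned most to genes of short exonic length. The part of that lean in these values was not tested.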

How the results depend on the processing

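Of the 38 tested genes, 13 rose in the reported fit. The number was 23 with library totals alone, 28 with the length slope as a covariate and 29 without KO16, KO20 and C11. It was 6 to 14 when each library was left out in turn. With no filter on low counts 40 were tested and 9 rose, against 4.01% of all tested genes called higher. The calls of Anln, Bub1b, Cdc20 and Ndc80 were lost in that fit. Library totals alone moved the median over all genes to 0.344 on the log2 scale, and upper-quartile factors to 0.14 (15 rose). All genes called numbered 2170, against 5117 with the slope, 9175 without the 3 libraries and 1106 to 2697 without single libraries. Other mitotic genes that rose numbered 18, against 32 with library totals, 28 with the slope, 40 without the 3 libraries and 11 to 20 without single libraries. Of those that fell there was 1, against 0, 3 and 7 in the same settings and 0 to 1 without single libraries. S phase genes that rose numbered 8, against 16 with library totals, 14 with the slope, 21 without the 3 libraries, 13 with DESeq2, 5 with no filter and 2 to 8 without single libraries. S phase genes that fell numbered 2, against 1 with RLE or upper-quartile factors or the length trend removed, 4 without the 3 libraries and 1 to 3 without single libraries. The causes of these moves were not tested. Xpr1 kept its call throughout (-2.98 to -2.04).

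Signs turned for values near 0. Cenpe (-0.0067) was 0.362 with library totals, 0.116 with upper-quartile factors, 0.029 with limma-voom, 0.0123 with a mean of at least 1 CPM, 0.194 without KO16 and KO20, 0.0122 without C11 as well, 0.0264 with the slope, 0.133 with the length trend removed, and -0.16 to 0.181 without single libraries (0.0107 without C10, 0.0876 without KO16, 0.103 without KO20). Without KO16, KO20 and C11, Bub3 was -0.0243 and Nusap1 -0.00187. Without single libraries Nusap1 ran from -0.0273 (C11) to 0.287, and Ect2 from -0.0133 (KO18; -0.0114 without C11) to 0.339. Foxs1 was -0.18 without KO16 and KO20, and -0.482 without C11 as well. No paired analysis was possible because the labels do not say which mice share a litter.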
